A study of Homo sapiens with 12 samples.

Results

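Keratins are the intermediate filament proteins of epithelial cells, and the 10 keratin genes described here are KRT7, KRT8, KRT80, KRT81 and KRT86 of type II and KRT18, KRT19, KRT10, KRT15 and KRT13 of type I. They were chosen by gene symbol with earlier results of these data known. Their shares and medians beside those of all genes are thus a description, not a test. All were found among the 27814 named genes of the deposited table and passed the filter on low counts that left 16208 genes. Bulk RNA sequencing was done in BT474, a long-established line of human breast carcinoma cells with amplified HER2 and hormone receptors. The 12 libraries form 4 groups of 3: cells labelled BRD8 KO after 200 nM neratinib for 4 h, parental cells after the same treatment, cells labelled BRD8 KO in DMSO, and parental cells in DMSO, the solvent, for a time the labels do not give. Neratinib binds covalently to HER2 and related receptor kinases and blocks them. BRD8 is a bromodomain protein of a histone-acetylating chromatin complex. The labels do not give the position of the BRD8 edit or say whether 1 clone was used. They do not call the replicates separate cultures either. The p-values therefore reflect the spread between these libraries, which may be technical.

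A keratin filament is built from pairs of a type I and a type II chain, so neither type forms filaments alone. Simple epithelia such as the luminal layer of the breast duct make mainly KRT8 with KRT18, together with KRT7 and KRT19, and antibodies to these chains mark luminal cells and carcinomas in pathology. KRT10, KRT13 and KRT15 belong mainly to stratified epithelia, KRT80 is a broadly made epithelial keratin, and KRT81 and KRT86 are keratins of the hair shaft.

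Each library held between 32471198 and 44726160 counts over named genes. BRD8 mRNA was at 156 ± 2.44 CPM in KO-labelled and 236 ± 5.23 CPM in parental cells in neratinib, and at 67.4 ± 1.39 CPM and 64.1 ± 0.706 CPM in DMSO (SD, n = 3 each). It was thus lower with the KO label in neratinib (log2 fold change -0.59) and slightly higher in DMSO (0.07). With neratinib it rose by 1.21 in KO-labelled and 1.88 in parental cells. Since the position of the edit is not given, the BRD8 level cannot show whether the genotype labels are right. CPM scale a count to library size, here with edgeR's TMM correction for differences in library composition. All 9 luminal markers, of which KRT8, KRT18 and KRT19 are themselves among the genes described, were present. They summed to 13500 to 13700 CPM in KO-labelled and 13980 to 14140 CPM in parental neratinib libraries, and to 18010 to 18300 CPM in KO-labelled and 17080 to 17290 CPM in parental DMSO libraries, so the sum was lower in KO-labelled cells in neratinib and higher in DMSO. ERBB2 was the largest part of each sum, at 8431 CPM in KO-labelled and 9135 CPM in parental neratinib cells. In DMSO it was at 8875 CPM in KO-labelled and 8174 CPM in parental cells. KRT8 came next, at 1973 and 1439 CPM in KO-labelled and parental neratinib cells and at 3895 and 3513 CPM in DMSO. KRT8, KRT18 and KRT19 were lower in neratinib than in DMSO in both genotypes, as were the sums. The sums thus describe mainly ERBB2 and these keratins, and say little of the other markers. Of the 9, 3 were higher and 5 lower in KO-labelled cells in neratinib, and 5 higher and 4 lower in DMSO. ESR1, GATA3, FOXA1 and EPCAM were lower in both treatments, and CDH1, KRT8 and KRT18 were higher in both. The luminal regulator GATA3 was at 171 CPM in KO-labelled and 389 CPM in parental neratinib cells, and at 249.7 and 434 CPM in KO-labelled and parental DMSO cells. The 7 basal or myoepithelial markers summed to 18.6 to 21.1 CPM in KO-labelled and 9.34 to 11.2 CPM in parental neratinib libraries, and to 16.6 to 17.7 CPM in KO-labelled and 11.1 to 11.6 CPM in parental DMSO libraries. None of the 7 was at 0 in all 3 libraries of a group, ACTA2 was at 0 in 1 parental DMSO library, and KRT14, which defines basal cells, stayed at or below 0.113 CPM on average in each group. The 7 mesenchymal markers summed to 186 to 189, 136 to 139, 118 to 124 and 95.2 to 101 CPM in the same order of groups, with PDGFRB at 0 in every library of both parental groups and DCN at 0 in parental neratinib. The 8 blood and endothelial markers summed to 36.8 to 41.6, 15.1 to 15.9, 33.9 to 34.7 and 12.3 to 12.4 CPM, with CD3E at 0 in all groups but KO-labelled neratinib and PTPRC at 0 in parental DMSO. The basal, mesenchymal and blood sums were higher in KO-labelled than in parental cells in both treatments, and their part in the keratin differences was not tested. Each rested on few genes. VWF, at 38.1, 14.7, 32.9 and 11.9 CPM in the same order of groups, made nearly all of the blood sum. COL1A1 and VIM, at 114 and 71.7 CPM in KO-labelled neratinib cells, made most of the mesenchymal sum. Between genotypes ZEB1 was not called, and CDH2 was lower with the KO label in DMSO and not called in neratinib. TP63 was the largest part of the basal sum.

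Keratin genes have near-copies, and with reads of 50 bases this sets how far a count can be tied to a gene. Of the 50-base windows in each principal transcript (GENCODE 29, GRCh38), 44.6% for KRT81 and 39.2% for KRT86 also occurred in transcripts of another gene, mostly each other's. KRT81 lies on chromosome 12, bases 52285913 to 52291534, minus strand, inside the span of KRT86, which runs over chromosome 12, bases 52249300 to 52309163, plus strand. Over 1457 aligned coding bases they are 93.6% identical, with an unbroken identical run of 605 bases. The lines below show the 60 coding bases, counted from 1 at the A of the start codon, in which they differ most (capitals mark the 14 differing bases; positions 1249 to 1308 in both), and then 60 bases that are the same in both (positions 61 to 120), where a read lying wholly inside cannot be assigned.
KRT81, most different: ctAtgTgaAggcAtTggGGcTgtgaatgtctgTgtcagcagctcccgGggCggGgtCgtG
KRT86, most different: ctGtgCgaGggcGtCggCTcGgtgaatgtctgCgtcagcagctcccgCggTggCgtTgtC
KRT81 and KRT86, identical: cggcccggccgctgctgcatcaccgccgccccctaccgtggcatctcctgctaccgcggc
The shares were 52.5% for KRT18 and 39.7% for KRT8, through many processed pseudogenes and, for KRT18, a KRT8 transcript on the opposite strand that overlaps it; the libraries do not mark strand. KRT80 shared 0.42% of its windows, all with KRT8 or its pseudogene KRT8P3.
The genes lie in the keratin clusters of chromosomes 12 and 17 of the same build. KRT8 is at bases 52897187 to 52949954 of chromosome 12, minus strand, and its annotated span reaches into KRT18, at bases 52948871 to 52952901 of chromosome 12, plus strand. KRT80 is at bases 52168996 to 52192000 of chromosome 12, minus strand, and KRT7 at bases 52232520 to 52252186 of chromosome 12, plus strand. The other type I genes are KRT19, at bases 41523617 to 41528308 of chromosome 17, minus strand, KRT15, at bases 41513743 to 41522529 of chromosome 17, minus strand, KRT13, at bases 41500981 to 41505705 of chromosome 17, minus strand, and KRT10, at bases 40818117 to 40822595 of chromosome 17, minus strand. For KRT7 and KRT13 the shares were 10.8% and 18.4%, mainly with antisense transcripts, and for KRT19, KRT15 and KRT10 they were 1.79%, 0.725% and 0.434%.

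**Figure D1:**
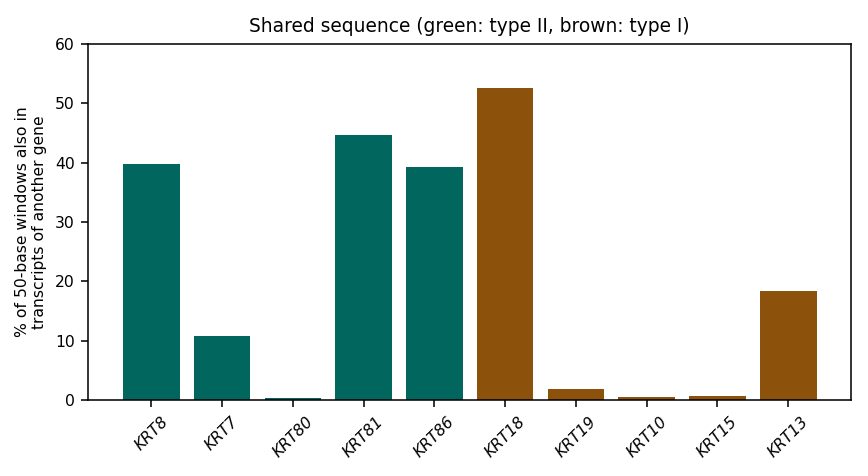
Bars give, for each keratin gene (x axis), the percentage of the 50-base windows of its principal transcript that also occur in transcripts of another gene (y axis), with type II genes in green on the left and type I genes in brown on the right. KRT18, KRT81, KRT8 and KRT86 stand between 39.2% and 52.5%, while KRT80, KRT19, KRT10 and KRT15 are at 1.79% or less.

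Per kilobase of principal transcript, KRT8 was the most abundant keratin mRNA in every group, at 1124 ± 18.6 CPM per kb in KO-labelled and 820.2 ± 7.66 in parental cells in neratinib, and at 2219 ± 21.2 in KO-labelled and 2002 ± 12.4 in parental cells in DMSO (SD, n = 3 each). KRT19 came second in DMSO, at 1646 ± 19.8 CPM per kb in KO-labelled and 1563 ± 15.8 in parental cells. KRT7 and KRT18 came next. They stood at 840.2 ± 28.0 and 802 ± 21.2 CPM per kb in KO-labelled DMSO cells and at 728 ± 15.5 and 735 ± 6.94 in parental DMSO cells, where their gap was smaller than the SD of KRT7. In KO-labelled neratinib cells KRT7, KRT19 and KRT18 stood close together at 585 ± 3.43, 560.0 ± 7.78 and 524 ± 2.22 CPM per kb, each step larger than the SDs. In parental neratinib cells the order was KRT19, KRT18 and KRT7, at 548 ± 3.66, 452 ± 11.3 and 349 ± 8.68 CPM per kb. KRT80 followed in every group, between 21.4 and 49.6 CPM per kb, and after it KRT10 and then KRT15. These neighbours were nearly level in KO-labelled neratinib cells, at 9.90 ± 0.679 and 9.48 ± 0.198 CPM per kb, within their spread. KRT81, KRT86 and KRT13 stayed below 1 CPM per kb in every group, with KRT13 the lowest of them in both neratinib groups and in parental DMSO cells and KRT81 the lowest in KO-labelled DMSO cells. KRT81 and KRT86 did not differ beyond their spread in KO-labelled neratinib cells, at 0.837 ± 0.188 and 0.697 ± 0.11 CPM per kb, nor did KRT13 and KRT86 in KO-labelled DMSO cells, at 0.292 ± 0.0406 and 0.274 ± 0.0676. The order of genes within a group also depends on how reads in shared windows were counted, which is not given in the sources used here. Such windows made up 52.5% of KRT18 and 39.7% of KRT8, but 10.8% of KRT7 and 1.79% of KRT19.

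The 10 genes together held 0.485% ± 0.00274 of all counts in KO-labelled and 0.368% ± 0.00341 in parental neratinib libraries, and 0.881% ± 0.0051 in KO-labelled DMSO and 0.793% ± 0.00305 in parental DMSO libraries (SD, n = 3 each). The keratin share was therefore lower in neratinib than in DMSO in both genotypes, and higher in KO-labelled than in parental cells in both treatments, without overlap between libraries. In bulk samples, fewer cells that make a keratin and less of its RNA per cell cannot be told apart. Within the keratin counts, KRT8 held a nearly constant part, between 40.2% and 43.4% on average, while KRT19 held 16.4% ± 0.181 in KO-labelled and 21.3% ± 0.0624 in parental neratinib libraries, against 25.5% ± 0.282 in KO-labelled DMSO and 26.6% ± 0.281 in parental DMSO libraries. KRT7 held 21.6% ± 0.0987 of them in KO-labelled neratinib libraries, 17.1% ± 0.435 in parental neratinib, 16.4% ± 0.455 in KO-labelled DMSO and 15.7% ± 0.276 in parental DMSO libraries.

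**Figure D2:**
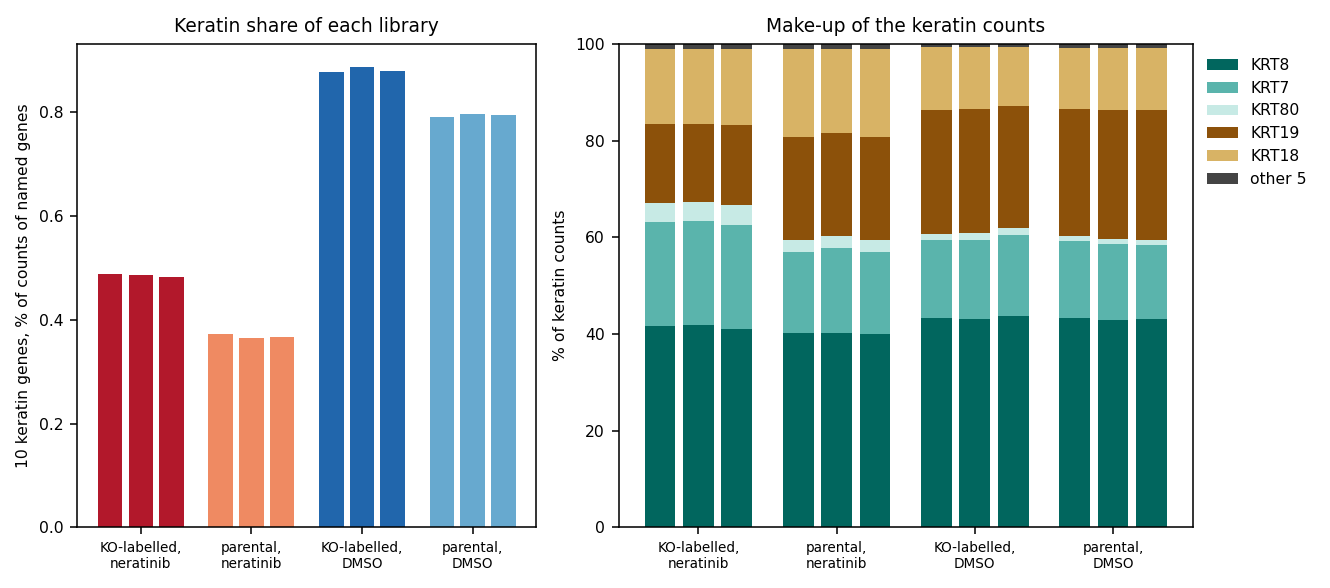
The left panel shows for each of the 12 libraries the 10 keratin genes as a percentage of all counts of named genes, and the right panel the make-up of those keratin counts, with type II genes in green shades and type I genes in brown shades. Neratinib libraries lie at 0.488% or less and DMSO libraries at 0.79% or more; the KRT19 band is narrower and the KRT80 band wider in neratinib.

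The first question is what neratinib did to keratin mRNA in each genotype. The main keratins of simple epithelia, KRT8, KRT18, KRT7 and KRT19, fell in both, KRT19 the most of these 4. KRT80 rose in KO-labelled cells, where the hair keratins KRT81 and KRT86 rose too. In KO-labelled cells 9 of the 10 genes were called, against 77.2% of all 16208 genes tested. Of the 10, 6 fell (38.4% of all genes) and 3 rose (38.9%). Changes of at least 2-fold were 1 fall (5.3% of all genes) and 2 rises (9.42%). In parental cells 9 of the 10 genes were also called, against 80.7% of all genes. Here 8 fell (38.9% of all genes) and 1 rose (41.8%). Of the falls 5 were at least 2-fold (7.78% of all genes), and of the rises 0 (13%). The members' shares called in any direction are thus near those of all genes. The median log2 fold change of the 10 was -0.41 in KO-labelled and -0.88 in parental cells, against 0.02 and 0.04 over all genes. The difference between the genotypes is the response of KO-labelled minus that of parental cells. It passed the test for 8 of the 10 genes (46.1% of all genes), and was positive for these 8 (21.5%) and negative for 0 (24.6%). It was at least 2-fold for 4 genes (3.27% of all genes), with 4 positive (1.48%) and 0 negative (1.79%). Its median was 0.54, against -0.02 over all genes. Genes are called at a Benjamini-Hochberg (BH) adjusted p under 0.05 in edgeR's quasi-likelihood fit over all genes. The comparisons reuse the same 12 libraries and are not independent of each other.

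**Figure D3:**
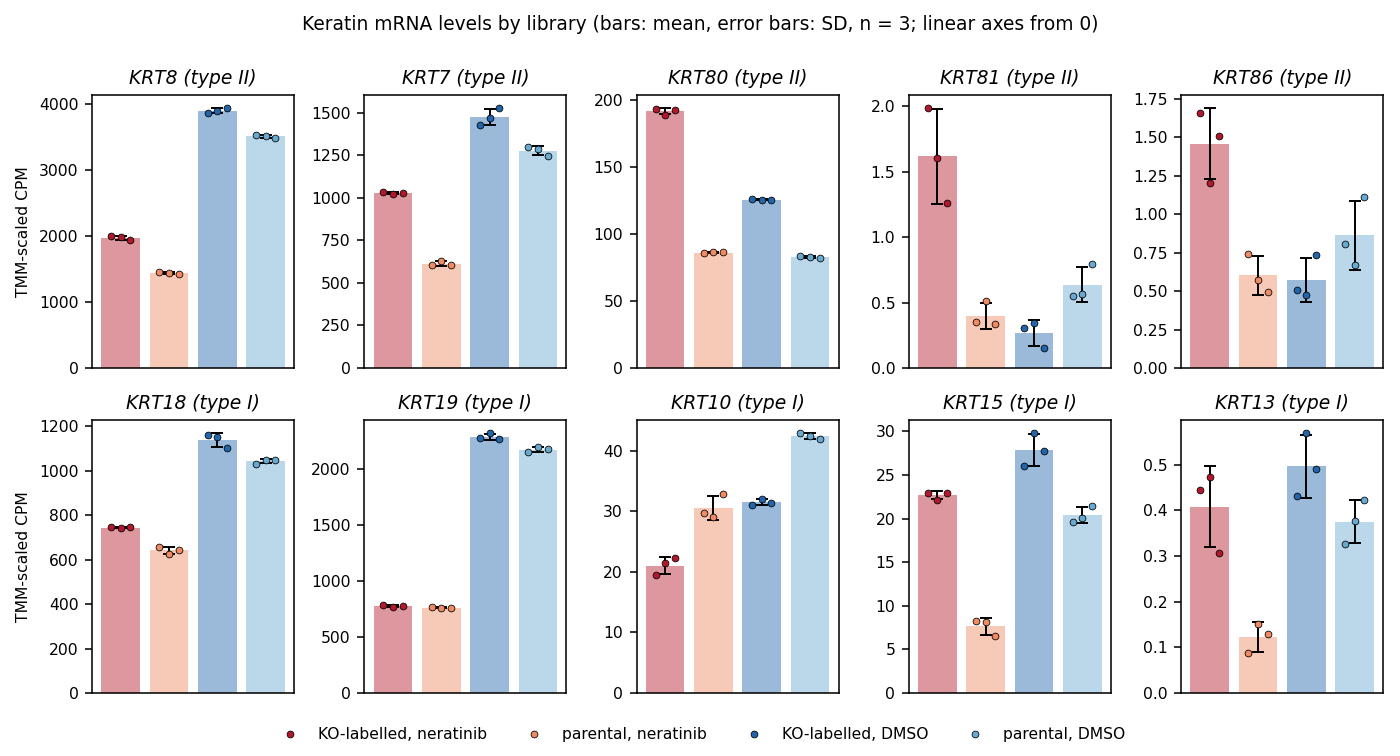
Each panel shows 1 keratin gene as TMM-scaled CPM on its own linear axis from 0, with a point per library, bars for the mean and error bars for the SD of the 3 libraries of each group, in the order KO-labelled neratinib, parental neratinib, KO-labelled DMSO and parental DMSO. KRT8, KRT7, KRT18 and KRT19 are lower in both neratinib groups, KRT80 and KRT81 are highest in KO-labelled neratinib libraries, and KRT10 is highest in parental DMSO libraries.

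KRT8, the type II chain that pairs with KRT18, had 1996, 1987 and 1936 CPM in the KO-labelled neratinib libraries, against 3859.5, 3892 and 3934 CPM in the KO-labelled DMSO libraries. In parental cells it had 1452, 1441 and 1425 CPM in neratinib, against 3535, 3512 and 3491 CPM in DMSO. The groups are far apart, the lowest levels being those of parental neratinib libraries. The log2 fold change was -0.98 in KO-labelled (SE 0.018, edgeR, BH-adjusted p = 1.33e-38) and -1.29 in parental cells (SE 0.0182, adjusted p = 4.96e-43). The fall was smaller in KO-labelled cells by 0.31 on the log2 scale (SE 0.0253, edgeR, BH-adjusted p = 9.82e-14), a difference that was lost at adjusted p = 0.289 when every gene was given a coefficient of variation of 0.1.

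KRT18, the type I partner of KRT8, had 745, 741 and 747 CPM in KO-labelled and 657, 625 and 644 CPM in parental neratinib libraries. In DMSO it had 1161, 1149.9 and 1104 CPM in KO-labelled and 1032, 1049 and 1049 CPM in parental libraries. Its neratinib levels were below its DMSO levels in both genotypes, with a smaller gap than for KRT8. It fell, with log2 fold changes of -0.61 in KO-labelled and -0.70 in parental cells (SE 0.0198 and 0.0199; edgeR, BH-adjusted p = 2.98e-29 and 1.6e-31). The genotypes' responses differed by only 0.09 (adjusted p = 0.00926, edgeR), and that call was lost with library totals alone (adjusted p = 0.0715), without KO-labelled DMSO replicate 3 (0.0582) and at a coefficient of variation of 0.1 (0.85). KRT18P55, a KRT18 pseudogene in the table, moved by -0.61 and -0.71, and KRT8P41, a KRT8 pseudogene, by -0.81 and -1.35 in KO-labelled and parental cells, much like their parent genes.

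KRT19, a type I keratin with a very short tail that is widely used as a luminal and circulating tumour cell marker, had 789, 767 and 779 CPM in KO-labelled neratinib libraries, against 2274, 2319 and 2269 CPM in KO-labelled DMSO libraries. In parental cells it had 767, 759 and 758 CPM in neratinib, against 2149.5, 2193 and 2177 CPM in DMSO. In both genotypes every neratinib library was far below every DMSO library, and the neratinib libraries of the genotypes overlapped. It fell, with log2 fold changes of -1.56 in KO-labelled and -1.51 in parental cells (SE 0.0185 and 0.0184; edgeR, BH-adjusted p = 1.03e-45 and 2.26e-45). Of the 4 abundant keratins, KRT19 alone had no called difference between the genotypes' responses (-0.04, SE 0.0256, edgeR BH-adjusted p = 0.179), although with library totals alone it was called at adjusted p = 0.0314.

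KRT7, a type II keratin of simple and glandular epithelia, had 1033, 1022 and 1025 CPM in KO-labelled and 604, 629 and 602 CPM in parental neratinib libraries. Its DMSO levels were 1427, 1469.8 and 1525 CPM in KO-labelled and 1299, 1284 and 1246 CPM in parental libraries. The 4 groups did not overlap, and parental neratinib was lowest. It fell, with log2 fold changes of -0.52 in KO-labelled cells (SE 0.021) and -1.06 in parental cells (SE 0.0213), and the difference of 0.54 between the responses passed the test (SE 0.0298, edgeR, BH-adjusted p = 2.42e-19).

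KRT80, a type II keratin found at cell margins of many epithelia, went the other way. It had 193, 189 and 193 CPM in KO-labelled neratinib libraries, against 126, 126 and 126 CPM in KO-labelled DMSO libraries. In parental cells it had 85.5, 86.5 and 86.6 CPM in neratinib, against 83.7, 82.7 and 81.8 CPM in DMSO. KO-labelled neratinib libraries were the highest and did not overlap any other group, while the parental groups lay close to each other. It rose by 0.61 in KO-labelled cells (SE 0.0208, edgeR, BH-adjusted p = 2.41e-28). In parental cells the log2 fold change was 0.06 (SE 0.0237, adjusted p = 0.0238, edgeR). That call was lost with DESeq2 (adjusted p = 0.239), its size factors (0.168), no filter on low counts (0.405) and a coefficient of variation of 0.1 (0.686). It was also lost without parental neratinib replicate 1, 2 or 3 (0.0827, 0.0553 and 0.166), KO-labelled DMSO replicate 1 or 3 (0.0968 and 0.101) and parental DMSO replicate 2 or 3 (0.0643 and 0.244). The difference between the responses was 0.55 (SE 0.0315, edgeR, BH-adjusted p = 1.01e-18). KRT8, the gene with which KRT80 shares those few windows, fell in both genotypes, and the part of shared reads in the KRT80 counts was not tested.

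KRT81 and KRT86 rest on few counts. KRT81 had 67, 68 and 45 counts in KO-labelled neratinib libraries, against 12, 15 and 5 in KO-labelled DMSO libraries. In parental cells it had 16, 17 and 13 counts in neratinib, against 22, 21 and 30 in DMSO. The KO-labelled neratinib libraries stood above all others. KRT81 rose by 2.53 in KO-labelled cells (SE 0.26, edgeR, BH-adjusted p = 9.97e-12) and fell by 0.69 in parental cells (SE 0.30, adjusted p = 0.0306, edgeR). The parental call was lost with DESeq2 (adjusted p = 0.0507), with library totals alone (0.054) and without parental neratinib replicate 1 or 3 (0.1 and 0.09) or parental DMSO replicate 3 (0.154). KRT86 had 56, 51 and 54 counts in KO-labelled neratinib and 20, 21 and 24 in KO-labelled DMSO libraries, against 34, 19 and 19 in parental neratinib and 32, 25 and 42 in parental DMSO libraries. It rose by 1.36 in KO-labelled cells (SE 0.23, edgeR, BH-adjusted p = 8.39e-07), while in parental cells the change of -0.49 was not called (SE 0.25, adjusted p = 0.0647, edgeR). It was called with no filter on low counts (adjusted p = 0.0489) and without parental neratinib replicate 1 (0.0274) or parental DMSO replicate 2 (0.0273). Since reads of this pair cannot be fully separated, their counts were also added into a single row, an alternative chosen after the data were seen. The pair then rose by 1.86 in KO-labelled and fell by 0.57 in parental cells, with a difference between the responses of 2.44 (edgeR, BH-adjusted p = 3e-13, 0.006 and 1.21e-10). Taken singly, that difference was 3.23 for KRT81 (SE 0.40) and 1.85 for KRT86 (SE 0.34), with edgeR, BH-adjusted p = 7.37e-09 and 1.27e-05.

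Among the keratins of stratified epithelia, KRT15 and KRT13 fell in parental cells and had a response that differed between the genotypes, while KRT10 fell in both genotypes. KRT15, a type I keratin of basal layers and progenitor cells, had 23.0, 22.1 and 22.9 CPM in KO-labelled and 8.27, 8.09 and 6.54 CPM in parental neratinib libraries, against 26.1, 29.8 and 27.7 CPM in KO-labelled DMSO and 19.6, 20.1 and 21.4 CPM in parental DMSO libraries. Parental neratinib libraries alone were below 10 CPM. TP63, which defines basal cells, was at 11.0 CPM in KO-labelled and 4.86 CPM in parental neratinib cells, against 9.52 and 6.62 CPM in DMSO, and its part was not tested. KRT15 fell, with log2 fold changes of -0.30 in KO-labelled and -1.41 in parental cells (SE 0.0506 and 0.0657), and the difference of 1.11 passed the test (SE 0.084, edgeR, BH-adjusted p = 6.51e-15). KRT10, the main type I keratin of the upper epidermis, had 19.4, 21.4 and 22.2 CPM in KO-labelled and 29.80, 28.99 and 32.85 CPM in parental neratinib libraries, against 31.0, 32.1 and 31.4 CPM in KO-labelled DMSO and 42.9, 42.4 and 41.9 CPM in parental DMSO libraries. It fell, with log2 fold changes of -0.58 in KO-labelled and -0.47 in parental cells (SE 0.0454 and 0.04; edgeR, BH-adjusted p = 1.75e-15 and 1.98e-14), with no called difference between them (-0.11, SE 0.0608, adjusted p = 0.144, edgeR). KRT10-AS1, which overlaps KRT10 on the opposite strand (TMEM99 in GENCODE 29), rose by 0.51 and 0.73 in KO-labelled and parental cells. KRT13, a type I keratin of mucosal epithelia, had 15, 20 and 11 counts in KO-labelled neratinib libraries, against 17, 25 and 16 in KO-labelled DMSO libraries, and 4, 5 and 5 in parental neratinib libraries, against 13, 14 and 16 in parental DMSO libraries. It fell by 1.62 in parental cells (SE 0.41, edgeR, BH-adjusted p = 0.000429), and in KO-labelled cells, where the groups overlapped, the change of -0.28 was not called (SE 0.29, adjusted p = 0.383, edgeR). It was -0.12 without KO-labelled neratinib replicate 3 and -0.16 without KO-labelled DMSO replicate 2. The difference of 1.34 between the responses passed the test (SE 0.51, adjusted p = 0.0285, edgeR). That call was lost with DESeq2 (adjusted p = 0.077), no filter on low counts (0.0527) and a coefficient of variation of 0.1 (0.093). It was also lost without KO-labelled neratinib replicate 1 or 2 (0.0519 and 0.0758), parental neratinib replicate 1 (0.103), KO-labelled DMSO replicate 1 (0.0548) or parental DMSO replicate 3 (0.0634).

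**Figure D4:**
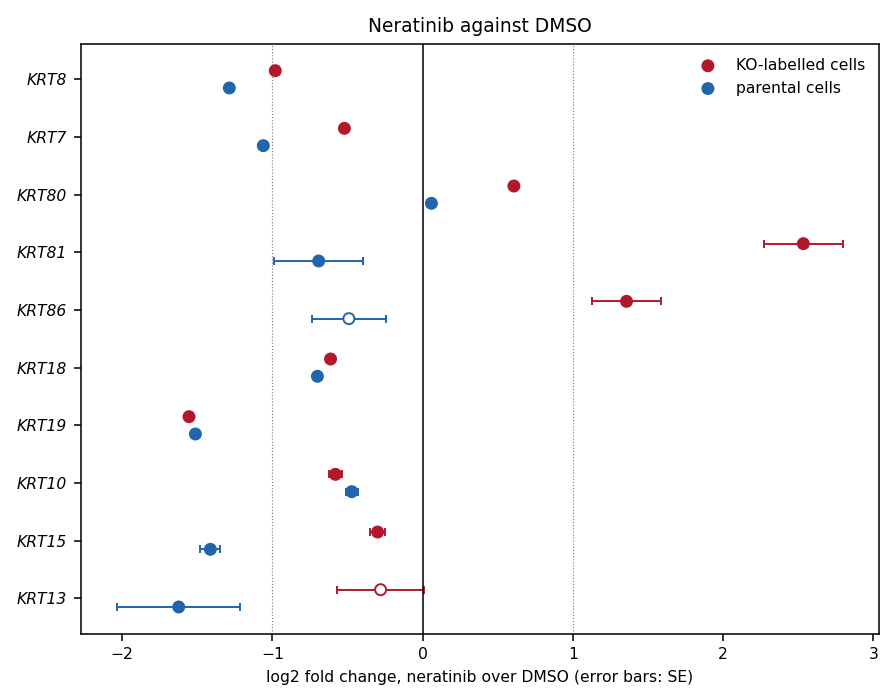
Points give the log2 fold change of neratinib over DMSO (x axis) with its SE for each keratin gene (rows), in KO-labelled cells (red, upper point of each row) and parental cells (blue, lower point); open points did not pass the test and dotted lines mark a 2-fold change. The red point lies to the right of the blue one for 8 of the 10 genes, and KRT10 and KRT19 are the others.

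The second question is how KO-labelled cells differed from parental cells in keratin mRNA. In neratinib 5 genes were at least 2-fold higher, and in DMSO 0 were. In neratinib 9 of the 10 genes were called, against 71.6% of all genes. Of the 10, 8 were higher (34.7% of all genes) and 1 lower (36.9%), 5 of them at least 2-fold higher (7.92%) and 0 at least 2-fold lower (3.25%). In DMSO 9 of the 10 were called too, against 71.6% of all genes. Here 6 were higher (36% of all genes) and 3 lower (35.6%), 0 of them at least 2-fold higher (8.89%) and 1 at least 2-fold lower (3.46%). This 1, KRT81, was under 2-fold without KO-labelled DMSO replicate 3 (-0.97) and when summed with KRT86. The median log2 fold change of the 10 was 0.95 in neratinib and 0.14 in DMSO, against -0.02 and 0.00 over all genes.

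In neratinib, the genes at least 2-fold higher in KO-labelled cells were KRT81 (2.03), KRT13 (1.76), KRT15 (1.57), KRT86 (1.23) and KRT80 (1.15), with edgeR BH-adjusted p of at most 0.000167. KRT7 was higher by 0.75 (SE 0.0213), KRT8 by 0.45 (SE 0.018) and KRT18 by 0.21 (SE 0.02), the last no longer called at a coefficient of variation of 0.1 (adjusted p = 0.136). KRT10 was lower, at -0.54 (SE 0.0456). KRT19 was not called at 0.03 (SE 0.0184, edgeR, BH-adjusted p = 0.12), but it was with DESeq2 (adjusted p = 0.0301), at a mean of at least 5 CPM (0.00565), with only the neratinib groups in the fit (0.0286) and without KO-labelled DMSO replicate 1 (0.0478). Its log2 fold change was then at most 0.06.

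In DMSO the differences of the abundant keratins were small: KRT7 was higher by 0.21, KRT8 by 0.15, KRT18 by 0.13 and KRT19 by 0.07 on the log2 scale. All 4 passed the test (edgeR BH-adjusted p of at most 0.000308), as did 71.6% of all genes. At a coefficient of variation of 0.1 none of these 4 was called (adjusted p = 0.145, 0.315, 0.408 and 0.644). KRT80 was higher by 0.60 (SE 0.0227) and KRT15 by 0.45 (SE 0.0513), and KRT10 was lower, at -0.43 (SE 0.0399). KRT81 was lower, at -1.20 (SE 0.32, edgeR, BH-adjusted p = 0.00104) and so was KRT86, at -0.62 (SE 0.25, adjusted p = 0.0275, edgeR). The KRT86 libraries overlapped, and its call was lost with DESeq2 (adjusted p = 0.0557) and without KO-labelled DMSO replicate 1 or 2 (0.0802 and 0.126) or parental DMSO replicate 3 (0.201, at -0.41). With the pair summed, the log2 fold change was 1.60 in neratinib and -0.84 in DMSO. KRT13 was not called in DMSO (0.41, SE 0.30, adjusted p = 0.21, edgeR).

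**Figure D5:**
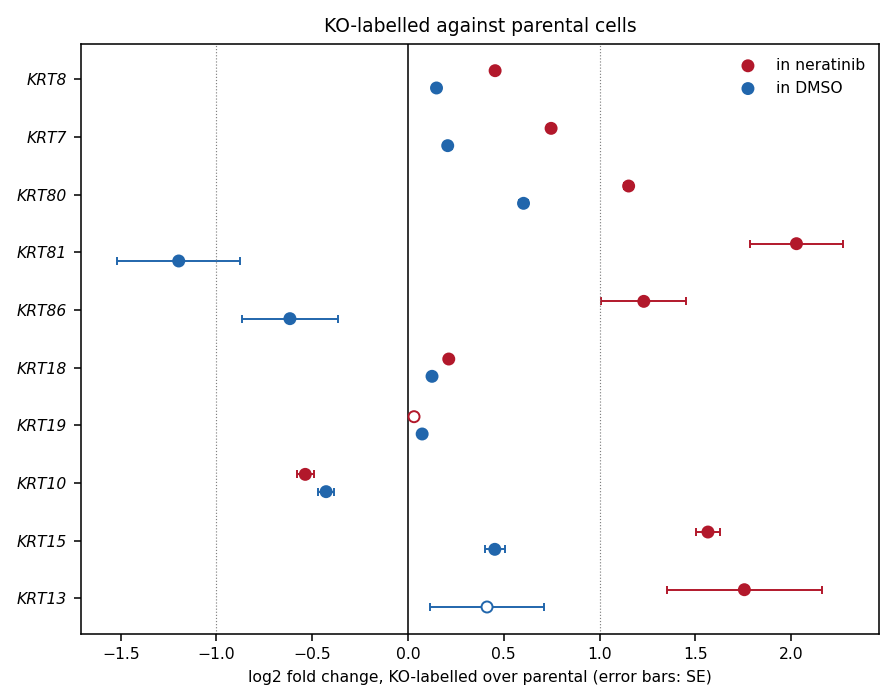
Points give the log2 fold change of KO-labelled over parental cells (x axis) with its SE for each keratin gene (rows), in neratinib (red, upper point of each row) and in DMSO (blue, lower point); open points did not pass the test and dotted lines mark a 2-fold change. KRT81 and KRT86 lie on the positive side in neratinib and on the negative side in DMSO, and KRT10 is negative in both.

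Since filaments need both types, the summed levels per kilobase of the 5 type II genes were set over those of the 5 type I genes, as a description with no test. This ratio was 1.59 ± 0.0222 in KO-labelled and 1.17 ± 0.024 in parental neratinib libraries, and 1.25 ± 0.0347 in KO-labelled DMSO and 1.18 ± 0.0211 in parental DMSO libraries (SD, n = 3 each). KO-labelled neratinib libraries stood apart from the rest, at 1.57 or more in each library against at most 1.29 elsewhere. The ratio of KRT8 to KRT18 was 2.15 ± 0.0413 in KO-labelled and 1.81 ± 0.0442 in parental neratinib libraries, and 2.77 ± 0.1 and 2.72 ± 0.0414 in KO-labelled and parental DMSO libraries. That of KRT19 to KRT18 was 1.07 ± 0.0117 and 1.21 ± 0.0249 in KO-labelled and parental neratinib libraries, and 2.05 ± 0.0492 and 2.13 ± 0.00765 in DMSO, so the excess of KRT19 over KRT18 was smaller in neratinib. The ratios depend on the annotated transcript lengths, and for the summed ratio another length would move the groups by unequal factors, since the make-up of each sum differs between them. They also depend on how reads in shared windows were counted, which is not given in the sources used here. Shared windows made up 52.5% of KRT18 and 39.7% of KRT8, but 1.79% of KRT19, so the size of these ratios is uncertain.

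The genes whose pattern over the 12 libraries was most like that of an abundant keratin, by the smallest Euclidean distance of centred log2 CPM among genes of at least 10 CPM, were PLEKHG6, VTCN1 and C15orf39 for KRT8 (distances 0.11, 0.13 and 0.15). For KRT18 they were APRT, CD151 and TEAD3 (0.11, 0.11 and 0.12), for KRT7 SLC37A1, HNRNPA3 and NAPRT (0.22, 0.23 and 0.26), and for KRT19 PLEKHH3, MYORG and KLF16 (0.22, 0.27 and 0.28). PLEKHG6 changed by -0.98 with neratinib in KO-labelled and by -1.32 in parental cells, beside -0.98 and -1.29 for KRT8.

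Another 45 keratin genes were in the table, of which 16 passed the filter, with a highest mean level of 9.54 CPM, that of KRT6B. The 29 that did not pass had at most 17 counts in any library. With neratinib, 3 of the 16 rose and 9 fell in KO-labelled cells (38.9% and 38.4% of all genes), and 1 rose and 10 fell in parental cells (41.8% and 38.9%), with median log2 fold changes of -0.66 and -0.85. In KO-labelled against parental cells, 13 were higher and 1 lower in neratinib (34.7% and 36.9% of all genes) and 9 higher and 2 lower in DMSO (36% and 35.6%; medians 1.03 and 0.39). KRT33A, a hair keratin, was at 0.835 ± 0.171 CPM in KO-labelled and 0.11 ± 0.0281 CPM in parental neratinib cells, and at 1.20 ± 0.0652 CPM and 0.0959 ± 0.0409 CPM in KO-labelled and parental DMSO cells, a difference between genotypes of 2.86 in neratinib and 3.60 in DMSO. The hair keratin KRT32 was higher in KO-labelled cells by 1.61 and 1.79 in neratinib and DMSO, and the epidermal keratins KRT2 by 1.30 and 1.59 and KRT1, the partner of KRT10, by 1.39 and 1.99. KRT1 rests on few counts, with 8, 12 and 8 in KO-labelled and 2, 2 and 7 in parental neratinib libraries. KRT33A, with 2 to 6 counts in each parental library, and KRT1 passed the filter on low counts only through KO-labelled libraries. Their calls as higher there, and their part in the numbers of higher genes above, were thus partly fixed by the filter. KRT4, the mucosal partner of KRT13, was lower in KO-labelled cells (-0.61 and -1.02) and fell with neratinib (-1.25 in KO-labelled and -1.67 in parental cells). KRT16, a keratin of wounded epidermis, fell (log2 fold changes -0.84 and -2.21), and KRT3, the cornea keratin, rose by 1.18 and 1.66 at under 1 CPM. KRT16 too was under 1 CPM, with 14, 10 and 6 counts in KO-labelled and 3, 3 and 5 in parental neratinib libraries. KRT3 passed the filter only with the neratinib libraries and KRT16 only with the DMSO libraries, where each was higher, so these changes were partly fixed too. KRT83 rose by 1.10 with neratinib in KO-labelled and fell by 0.73 in parental cells, with a difference between the responses of 1.83. It had only 6 to 31 counts per library, and shares 6.41% of its 50-base windows with KRT81 and 4.38% with KRT86. All changes in this paragraph passed the test, with edgeR BH-adjusted p of at most 0.0274. KRT6B and KRT6C, which share 44.8% of the 50-base windows of KRT6B, had nearly the same counts, KRT6B exceeding KRT6C by 0 to 13 in libraries where KRT6B had 128 to 374 counts, so both are in the counts of this paragraph but may not be separate measurements.

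Of 21 keratin linker genes, which tie filaments to desmosomes and other proteins, 6 rose and 15 fell with neratinib in KO-labelled cells (38.9% and 38.4% of all genes) and 4 rose and 16 fell in parental cells (41.8% and 38.9%; medians -0.29 and -0.46). SFN, a 14-3-3 protein that binds keratins, fell (log2 fold changes -1.58 and -1.94), and the desmosomal plakophilin genes PKP2 (-1.32 and -1.48) and PKP3 (-1.18 and -1.36) fell too, in KO-labelled and parental cells. In KO-labelled against parental cells, 16 were higher and 4 lower in neratinib (34.7% and 36.9% of all genes) and 13 higher and 7 lower in DMSO (36% and 35.6%; medians 0.27 and 0.15). The desmosomal cadherin gene DSG2 was lower (log2 fold change -0.68 in neratinib and -1.16 in DMSO), with 70.9 ± 1.44 CPM in KO-labelled and 114 ± 0.92 CPM in parental neratinib cells and 56.6 ± 2.55 CPM in KO-labelled and 127 ± 5.15 CPM in parental DMSO cells (SD, n = 3 each).

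Of 16 other intermediate filament genes, 8 passed the filter, and 4 rose and 4 fell with neratinib in KO-labelled cells, near the shares over all genes (38.9% and 38.4%), and 2 rose and 5 fell in parental cells (41.8% and 38.9%; medians 0.03 and -0.37). The lamin gene LMNB2 fell (log2 fold changes -1.38 and -1.32). The syncoilin gene SYNC fell (log2 fold changes -1.97 and -1.91), while the lens filament gene BFSP1 rose by 1.81 and 1.77. GFAP, the astrocyte filament gene, stayed below 1 CPM and rose by 1.32 in KO-labelled cells, with 0.38 in parental cells not called (edgeR BH-adjusted p = 0.423). In KO-labelled against parental cells 6 of these 8 were higher and 1 lower in neratinib (34.7% and 36.9% of all genes), and 5 higher and 1 lower in DMSO (36% and 35.6%; medians 0.46 and 0.25).

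Of 30 cornification genes, which build the hardened outer layer of stratified epithelia, 17 passed the filter. With neratinib 4 rose and 7 fell in KO-labelled cells (38.9% and 38.4% of all genes), and 4 rose and 5 fell in parental cells (41.8% and 38.9%; medians -0.22 and 0.07). In KO-labelled against parental cells 9 were higher and 3 lower in neratinib (34.7% and 36.9% of all genes) and 11 higher and 3 lower in DMSO (36% and 35.6%; medians 0.63 and 0.45). IVL, which encodes involucrin of the cornified envelope, was at 3.22 ± 0.376 CPM in KO-labelled and 0.439 ± 0.195 CPM in parental neratinib cells, and at 4.68 ± 0.511 CPM and 3.20 ± 0.327 CPM in KO-labelled and parental DMSO cells, so that the responses differed by 2.28 (SE 0.24, edgeR, BH-adjusted p = 7.79e-11). CALML5, a calcium-binding protein of differentiating keratinocytes, fell (log2 fold changes -2.69 and -3.53) with neratinib in KO-labelled and parental cells. SPRR1A, another envelope gene, and S100A8, a calcium-binding inflammation gene, had group means below 0.5 CPM. SPRR1A was higher in KO-labelled cells by 1.81 in neratinib and by 2.72 in DMSO, and S100A8 by 2.66 in neratinib and by 1.79 in DMSO. The neratinib value of S100A8 rests on a parental mean of 0.0218 CPM and the DMSO value of SPRR1A on 0.0528 CPM, both close to 0. Both genes passed the filter on low counts only through KO-labelled libraries. Their calls as higher there, and their part in the counts of this paragraph, were thus partly fixed by the filter.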

How the data were processed

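The deposited table gives raw read counts for every gene in each of 12 libraries. Per the labels' protocols, a TruSeq v2 kit was used (poly(A) selection, no strand information) and reads were single, of 50 bases. Per the submitters' processing notes, FastQC 0.11.7, STAR 2.7.9 and edgeR 3.40.2 were used with GRCh38 (hg38); the counting step is not given in the sources used here. Of 28395 lines, 581 carried no symbol, held 0.0877% to 0.124% of counts and were left out.

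Counts were filtered with filterByExpr, scaled by TMM and fitted with a mean per group over all 12 libraries (edgeR 4.0.16, R 4.3.3, quasi-likelihood, 8 residual degrees of freedom, common coefficient of variation 1.86%), with Benjamini-Hochberg adjustment over 16208 genes; at such a small spread, very small differences passed. DESeq2 1.42.0 and the other alternatives are in the closing section. Coordinates, lengths and windows come from GENCODE 29. Members, lists and the naming rule were chosen with earlier results of these data known: all 10 members, up to 8 other keratins changed at least 2-fold and up to 4 called genes per list.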

Additional observations from a re-analysis of the deposited data

Results flagged for a closer look

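For 8 of the 10 keratin genes the neratinib response of KO-labelled cells differed from that of parental cells by the interaction test (edgeR quasi-likelihood, Benjamini-Hochberg adjusted p below the threshold of 0.05), which is why they are listed again. KO-labelled minus parental, the differences in log2 fold change were 3.23 for KRT81, 1.85 for KRT86, 1.34 for KRT13, 1.11 for KRT15, 0.55 for KRT80, 0.54 for KRT7, 0.31 for KRT8 and 0.09 for KRT18. KRT81 and KRT86 share reads, so their differences are not independent. At an assumed variation of 0.1 between replicates, 5 of the 8 were called.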

How the results depend on the processing

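Of 985 refitted log2 fold changes of keratin genes under 22 settings, all kept their sign, and 36 of the 50 kept their call under every setting that could give a value. The count of members called higher with neratinib in parental cells, 1 (KRT80), was 0 with DESeq2, with DESeq2-style size factors, with no filter and at a coefficient of variation of 0.1. At that coefficient 2 members were higher in KO-labelled DMSO cells (6 in the fit reported) and 5 had a larger response in KO-labelled cells (8 in the fit reported). Larger responses numbered 7 with DESeq2, with no filter and with library totals alone, where 1 member had a smaller response, and 7 to 8 when each library was left out. With no filter, 2 members fell at least 2-fold in KO-labelled cells (1 in the fit reported), and 3 responses differed at least 2-fold (4 in the fit reported). Falls of at least 2-fold in parental cells numbered 4 with library totals alone (5 in the fit reported), where KRT7 was at -0.98. A mean of at least 5 CPM removes KRT13, KRT81 and KRT86; 1 member was then lower and 0 at least 2-fold lower in KO-labelled DMSO cells, 2 were at least 2-fold higher in KO-labelled neratinib cells, 1 rose and 0 rose at least 2-fold with neratinib in KO-labelled cells, and 5 responses differed, 1 at least 2-fold. Leaving out each library in turn gave 0 to 1 members higher with neratinib in parental cells and 0 to 1 at least 2-fold lower in KO-labelled DMSO cells, the 0 being without KO-labelled DMSO replicate 3.

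As shares of counts without TMM, the 10 genes summed to 4854 CPM in KO-labelled neratinib, 3679 in parental neratinib, 8810.4 in KO-labelled DMSO and 7934 in parental DMSO libraries; the order of the groups was the same with it. Same-numbered libraries did not deviate together (correlations -0.114 to 0.116 over 18 pairs; 4 of 12 libraries matched their own number best), so the numbers were not taken to pair them. With replicate number as a block, 6 and 3 members were called higher and lower in KO-labelled DMSO cells, as without the block, and no member's call changed. KRT13, KRT81 and KRT86, at 4 to 68 counts per library, are limited by depth.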
